A study of Homo sapiens with 6 samples.

Results

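Protocadherins are a large family of cadherin-like cell-surface proteins, and their messages were followed here in RD cells, an established embryonal rhabdomyosarcoma line. Members were taken by name from the counted genes: symbols starting with PCDH and a number, or with PCDHA, PCDHB, PCDHGA, PCDHGB, PCDHGC or PCDHAC and a number, leaving out pseudogenes ending in P and antisense genes. This gave 67 of the 58735 genes in the counts, of which 54 are clustered (16 alpha, 16 beta and 22 gamma genes) and 13 are non-clustered. The RNA came from 3 RD cultures transduced with lentiviral particles carrying a scrambled shRNA, called control below, and from 3 RD cultures transduced with particles carrying a shRNA against TAK1, called TAK1 knockdown below. All 6 cultures were of the same line, all were transduced, and the knockdown cultures carried 1 shRNA sequence, so an effect of that sequence on other messages cannot be told apart from the loss of TAK1. The comparison asks which protocadherin messages differed between the knockdown and control cultures, and whether clustered and non-clustered members did so alike.

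In the clustered genes, each variable exon has its own promoter and encodes the outer domains, the membrane span and part of the tail of one protein. Alpha and gamma variable exons are spliced to constant exons shared within their cluster, while beta genes have no constant exons. The proteins bind copies of themselves on neighbouring cells, and neurons use the choice of isoforms to tell their own branches from those of other cells. The non-clustered genes lie scattered in the genome with a promoter and a tail of their own, and several of their proteins bind the actin-regulating WAVE complex. The clustered genes are best known from neurons, in which the factor CTCF and cohesin act at a conserved element before the variable exons.

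The conserved element is shown here because it is the sequence by which promoters of the clustered genes are known. RefSeq start sites on GRCh38.p14 were matched for 58 of the 67 members, each with 250 bases before and 50 bases after the start. PCDH10, PCDH20, PCDHA3, PCDHA13, PCDHA14, PCDHB6, PCDHB11, PCDHGA12 and PCDHGC5 had no entry. The following stretches of 44 bases all lie on the plus strand of chromosome 5, before the start of genes whose values are given below, and the capitals mark a copy of CGCT, the 4-base core of the element. The copy shown is the one within a word given below, else one followed by GT, else the one closest to 50 bases before the start.
PCDHA4, chr5:140806971-140807014: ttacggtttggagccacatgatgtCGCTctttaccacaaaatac
PCDHA6, chr5:140827889-140827932: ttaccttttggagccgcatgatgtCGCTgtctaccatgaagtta
PCDHA11, chr5:140868875-140868918: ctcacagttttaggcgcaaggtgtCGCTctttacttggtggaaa
PCDHB2, chr5:141094536-141094579: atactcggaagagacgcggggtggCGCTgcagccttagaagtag
PCDHB4, chr5:141121715-141121758: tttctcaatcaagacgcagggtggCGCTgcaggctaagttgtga
PCDHB12, chr5:141208635-141208678: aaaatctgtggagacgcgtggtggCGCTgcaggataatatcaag
PCDHGA2, chr5:141338695-141338738: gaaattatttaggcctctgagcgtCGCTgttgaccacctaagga
PCDHGA9, chr5:141402706-141402749: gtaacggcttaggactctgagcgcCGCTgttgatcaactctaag
PCDHGA10, chr5:141412923-141412966: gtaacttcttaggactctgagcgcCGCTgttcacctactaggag
PCDHGC3, chr5:141475872-141475915: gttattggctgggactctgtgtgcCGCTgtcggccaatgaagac

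The core CGCT, on either strand, was present in 12 of 13 alpha, 14 of 14 beta and 20 of 20 gamma genes with an entry, but also in 10 of 11 non-clustered genes and in 70.0% of the 35116 promoters in the table. The core alone therefore did not separate the family from other genes. The longer GGCGCT was found in 13 of 14 beta, 9 of 20 gamma, 1 of 13 alpha and 2 of 11 non-clustered genes, against 21.7% of all promoters. TATAAA, sought for comparison, was found in 3 of 13 alpha, 1 of 14 beta, 2 of 20 gamma and 3 of 11 non-clustered genes, against 11.5% of all promoters.

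Longer words that include the core were picked after the windows had been read, so their counts are descriptions. GATGTCGCT was present in 9 of 13 alpha promoters and in 0.105% of all promoters, and PCDHA9, PCDHA11, PCDHAC1 and PCDHAC2 lacked it. GGTGGCGCT, which contains GGCGCT, was present in 13 of 14 beta promoters and in 0.501% of all promoters, with PCDHB1 as the exception. CGCTGTT was present in 13 of 20 gamma promoters, in 1 beta promoter and in 2.26% of all promoters. PCDHGC3 and PCDHGC4 were among the 7 gamma genes without it. Read from each start along the strand of the gene, the core of the alpha word began between 81 and 38 bases before the start, with a median of 48 bases before it. Over all copies of the core on the strand of the gene, each counted once from its nearest start, 16 of 17 in alpha, 16 of 19 in beta, 26 of 35 in gamma and 8 of 18 in non-clustered genes began within 100 bases before the start.

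**Figure D1:**
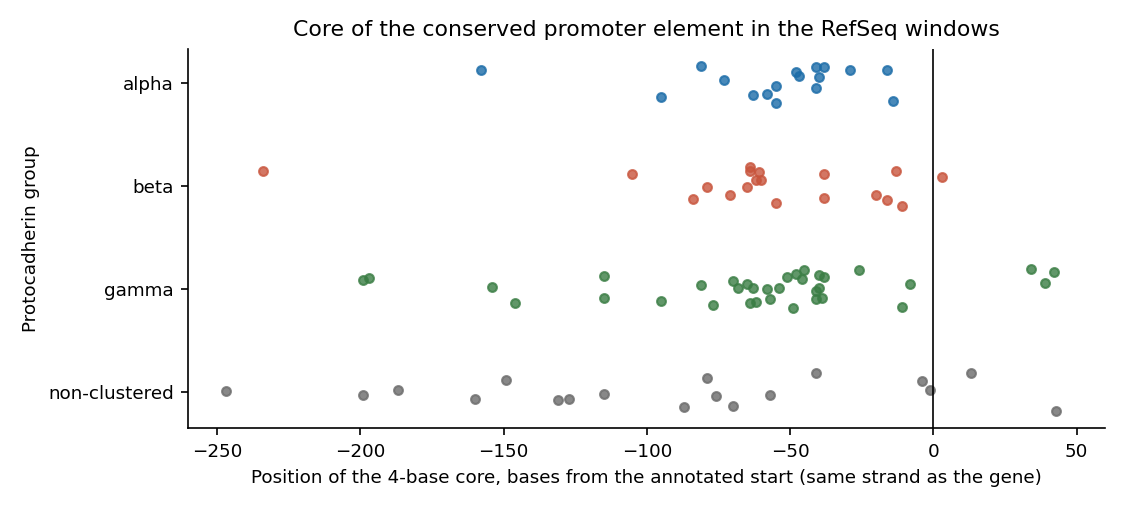
Position of every copy of the 4-base core on the strand of the gene (horizontal axis, bases from its nearest RefSeq start, which is at 0) for alpha, beta, gamma and non-clustered protocadherins, with 1 point a copy and points spread vertically only to be visible. All but 1 of the 17 alpha copies and all but 3 of the 19 beta copies lie within 100 bases before the start, while 8 of the 18 copies of the non-clustered genes do.

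The targeted gene was checked first. MAP3K7, which encodes the kinase TAK1, had 77.9, 76.5 and 77.6 CPM (counts per 1000000, with library sizes scaled by TMM, the trimmed mean of M-values) in control replicates 1, 2 and 3. In the knockdown cultures its mean was 31.3 ± 2.00 CPM (SD, n = 3), which the fit gave as a log2 fold change of -1.30 (SE 0.06, adjusted p = 4.45e-14, edgeR quasi-likelihood test with Benjamini-Hochberg adjustment). Total counts ran from 28839898 to 34469323 a culture. Over 15935 tested genes, a gene was called when its adjusted p was under 0.05 and its log2 fold change at least 0.25 in size, and 11.8% of the genes were called higher and 11.3% lower in the knockdown, with a median log2 fold change of 0.02. The labels call the cells embryonal rhabdomyosarcoma. Of 6 markers of the skeletal muscle lineage 5 were tested, MYF5 was at 0, and their summed level ran from 1270 to 1280 CPM in control and from 1380 to 1530 CPM in knockdown cultures, with MYOD1 and MYOG called higher. Of 9 markers of neurons, which also use protocadherins, 3 were tested, ELAVL4 was at 0, and the sum ran from 10.8 to 11.6 CPM in control and from 9.85 to 10.1 CPM in knockdown cultures. The 5 markers of epithelium had too few counts to be tested, CDH1 and KRT14 were at 0, and the sum ran from 0.352 to 0.603 CPM in control and from 0.137 to 0.594 CPM in knockdown cultures. The part of these markers in the protocadherin results was not tested. In bulk RNA, fewer cells that express a gene and less RNA in each cell cannot be told apart.

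RD cells expressed protocadherins of every kind, but a single gene led each kind. Counts were sufficient to test 47 members: 15 alpha, 11 beta, 13 gamma and 8 non-clustered. A further 16 members had counts but too few for the expression filter: PCDHB1, PCDHB5, PCDHB7, PCDHB8 and PCDHB15, 9 gamma genes (PCDHGA3, PCDHGA5, PCDHGA7, PCDHGA11, PCDHGA12, PCDHGB1, PCDHGB3, PCDHGB4 and PCDHGB5), PCDH10 and PCDH11X. These 16 clustered and non-clustered genes held between 2 and 59 counts in all 6 cultures together. PCDH8, PCDH20 and PCDHA14 had 0 counts in every culture, where 3 counts, a limit set by counting error only, would be 0.0849 to 0.106 CPM. For PCDH20, 4659 of 5105 exon bases overlap another gene on the same strand, and for PCDHA14 all 2298 exon bases overlap another gene. How reads on such bases were assigned is not known, so this limit may not hold for PCDH20 and PCDHA14. PCDHA14 is annotated as a pseudogene although its symbol lacks the ending. PCDH11Y is counted among the members without a value.

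Levels were compared between genes only per length, as CPM per kilobase of exon that no other annotated gene overlaps, averaged over all 6 cultures. On this scale PCDHGC3, a C-type gamma gene, was the highest member at 62.7, followed by the non-clustered PCDH7 at 37.7 and by PCDHB2 at 23.6. PCDH18 came next at 15.3, then PCDHA6 at 9.06, PCDHB11 at 6.14, PCDH15 at 5.11, PCDHB6 at 4.46 and PCDHB16 at 4.15. In the gamma cluster the next genes after PCDHGC3 were PCDHGA9 at 0.981 and PCDHGA10 at 0.704 CPM per kilobase, and in the alpha cluster PCDHA6 was followed by PCDHA11 at 2.31 and PCDHAC2 at 2.26. Per kilobase of all exons, constant exons included, PCDHGC3 stood at 37.6, PCDH7 at 33.0, PCDHB2 at 13.3 and PCDHA6 at 3.95, which kept the order of these 4. Other genes changed place on this second scale: PCDH18 at 15.3 stood above PCDHB2. PCDHB11 at 5.95, PCDH15 at 5.11 and PCDHB6 at 4.37 stood above PCDHA6. The gene-specific length of PCDHB2 leaves out 1797 of its 4098 exon bases, which overlap a gene on the opposite strand. Of the 5595 exon bases of PCDHA1, all but 7 overlap other alpha genes or a gene on the opposite strand, so it was given no level on the first scale.

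**Figure D2:**
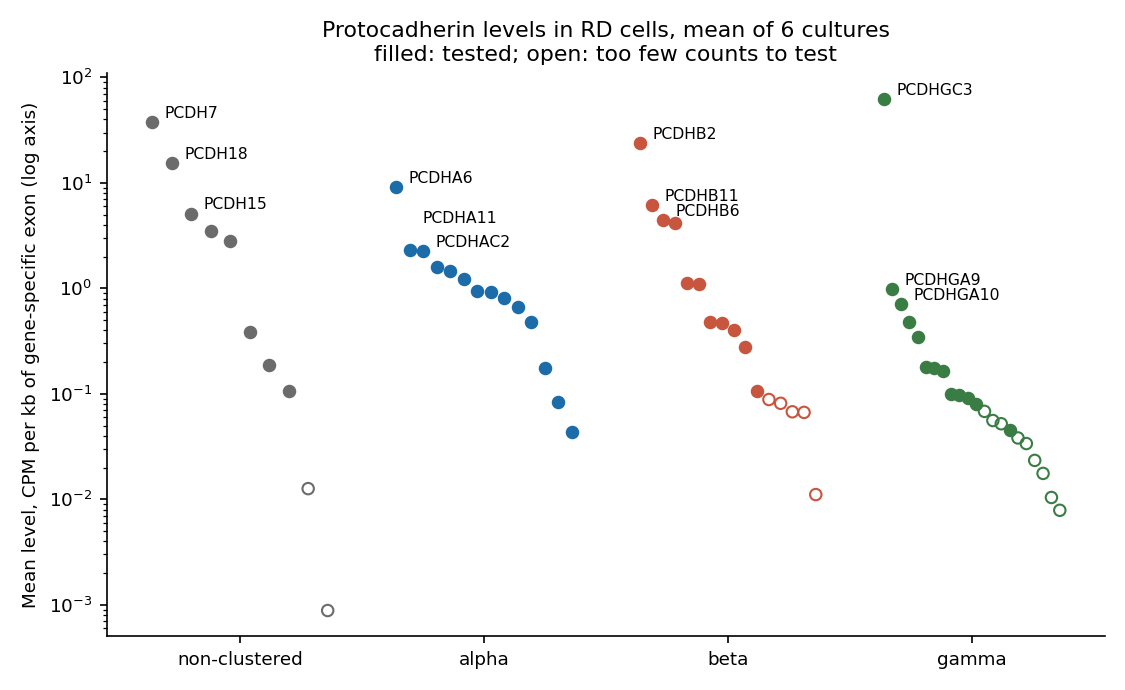
Mean level over the 6 cultures in CPM per kilobase of gene-specific exon (vertical log axis) for each protocadherin with counts and at least 1000 bases of such exon. Genes are sorted within non-clustered, alpha, beta and gamma genes, with tested members filled and untested members open. PCDHGC3 at 62.7 stands far above the next gamma gene, PCDHGA9, at 0.981, while the non-clustered and beta genes descend in smaller steps from PCDH7 and PCDHB2.

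The counting of shared exons limits these levels. The 15 alpha genes with counts all share exons with the rest of the alpha cluster, and the gamma genes share theirs with 21 others, and the sources used here do not say how reads on such exons were assigned. PCDHGB4 had counts of 0, 0, 1, 0, 0 and 4 although it shares the gamma constant exons with PCDHGC3, so reads on those exons were not given to every gene of the cluster. Of the 75-base stretches of the transcripts, as long as a read, 37.4% were shared with another protocadherin for PCDHGC3 and 9.3% for PCDHB11. For PCDH7, PCDH9, PCDH12 and PCDH17 the share was 0.0%.

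Of the 8 tested non-clustered genes, 5 were called: PCDH12, PCDH9 and PCDH7 fell in the TAK1 knockdown cultures, and PCDH18 and PCDH17 rose. That is 37.5% of the tested non-clustered genes lower and 25.0% higher, beside the 11.3% and 11.8% of all tested genes given above. In CPM, the control and knockdown cultures did not overlap for these 5 genes, with 3 below and 2 above, where 22.2% of all tested genes lay wholly below and 21.6% wholly above in the knockdown. The median log2 fold change over the 8 was -0.18, but it was -0.07 without knockdown replicate 1. With no filter on low counts the median was 0.03, but PCDH10 and PCDH11X, with 24 and 2 counts in all, then entered it as well. The sign of the median thus depends on whether such genes are included. Of the 8, 6 had a mean of at least 5 CPM and all 5 called genes were among those 6, while 28.0% of all tested genes at that level were called.

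PCDH12, also known as vascular endothelial cadherin 2 and best known from endothelium and placenta, showed the largest fall among the tested non-clustered genes. The gene occupies 141943581 to 141969741 of chromosome 5 (minus strand, GRCh38, GENCODE 44), beyond the gamma cluster. Its level was 28.7, 29.4 and 28.2 CPM in control replicates 1, 2 and 3 and 14.0, 14.4 and 12.8 CPM in knockdown replicates 1, 2 and 3. All knockdown cultures lay far below all control cultures, and within each group the 3 values were close. The log2 fold change was -1.07 (SE 0.08, adjusted p = 1.43e-10, edgeR), a decrease of 52.2% in mean CPM. On 10 bases its exons overlap RNF14 on the opposite strand.

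PCDH9, a synaptic adhesion protein, is encoded at 66302834 to 67230445 of chromosome 13 (minus strand). The control cultures held 14.8, 16.0 and 13.3 CPM of it and the knockdown cultures 8.10, 9.0 and 9.30 CPM. The highest knockdown culture was thus still below the lowest control culture. The log2 fold change was -0.74 (SE 0.10, adjusted p = 3.86e-06, edgeR), a fitted decrease of 40.0%.

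PCDH7, an adhesion protein of the delta type also called NF-protocadherin, is encoded at 30720369 to 31146805 of chromosome 4 (plus strand). It had 515, 487 and 492 CPM in control replicates 1, 2 and 3 and 365, 338 and 359 CPM in knockdown replicates 1, 2 and 3. The gap between the groups was several times the spread within them. PCDH7 fell by 0.49 on the log2 scale (SE 0.04, adjusted p = 3.69e-09, edgeR). PCDH7 exons overlap an unnamed gene on the opposite strand.

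PCDH18, a delta protocadherin known from mesoderm and its derivatives, is encoded at 137518918 to 137532494 of chromosome 4 (minus strand) and moved the other way. Its control values were 84.9, 84.9 and 89.7 CPM and its knockdown values 111, 118 and 124 CPM. Each knockdown culture exceeded each control culture. The log2 fold change was 0.45 (SE 0.05, adjusted p = 3.08e-07, edgeR), an increase of 36.2% in mean CPM.

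PCDH17, a synaptic protocadherin whose tail binds the WAVE complex, is encoded at 57631744 to 57729311 of chromosome 13 (plus strand). It had 21.0, 19.7 and 19.2 CPM in control replicates 1, 2 and 3 and 27.1, 21.4 and 23.3 CPM in knockdown replicates 1, 2 and 3. The groups did not overlap, but knockdown replicate 2 lay only just above control replicate 1. The log2 fold change was 0.26 (SE 0.09, adjusted p = 0.0228, edgeR), close to the fold threshold. The call was lost without control replicate 2 (log2 fold change 0.25, adjusted p = 0.0786), without control replicate 3 (0.23, adjusted p = 0.0975) and without knockdown replicate 1 (0.16, adjusted p = 0.158).

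The other non-clustered genes were not called. PCDH15, the protein of the tip links of hair cells, was the third in level per length and had 71.9, 76.4 and 77.0 CPM in control cultures and 76.3, 84.7 and 85.5 CPM in knockdown cultures. These ranges overlapped, and the log2 fold change was 0.13 (SE 0.06, adjusted p = 0.0799, edgeR). PCDH19, which is tied to epilepsy and binds the WAVE complex, had a log2 fold change of 0.19 (SE 0.24) at means of 1.70 and 1.93 CPM. PCDH1, known from airway epithelium, had -0.48 (SE 0.41) at means of 0.736 and 0.522 CPM, so a change of this size could not be detected at its depth.

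**Figure D3:**
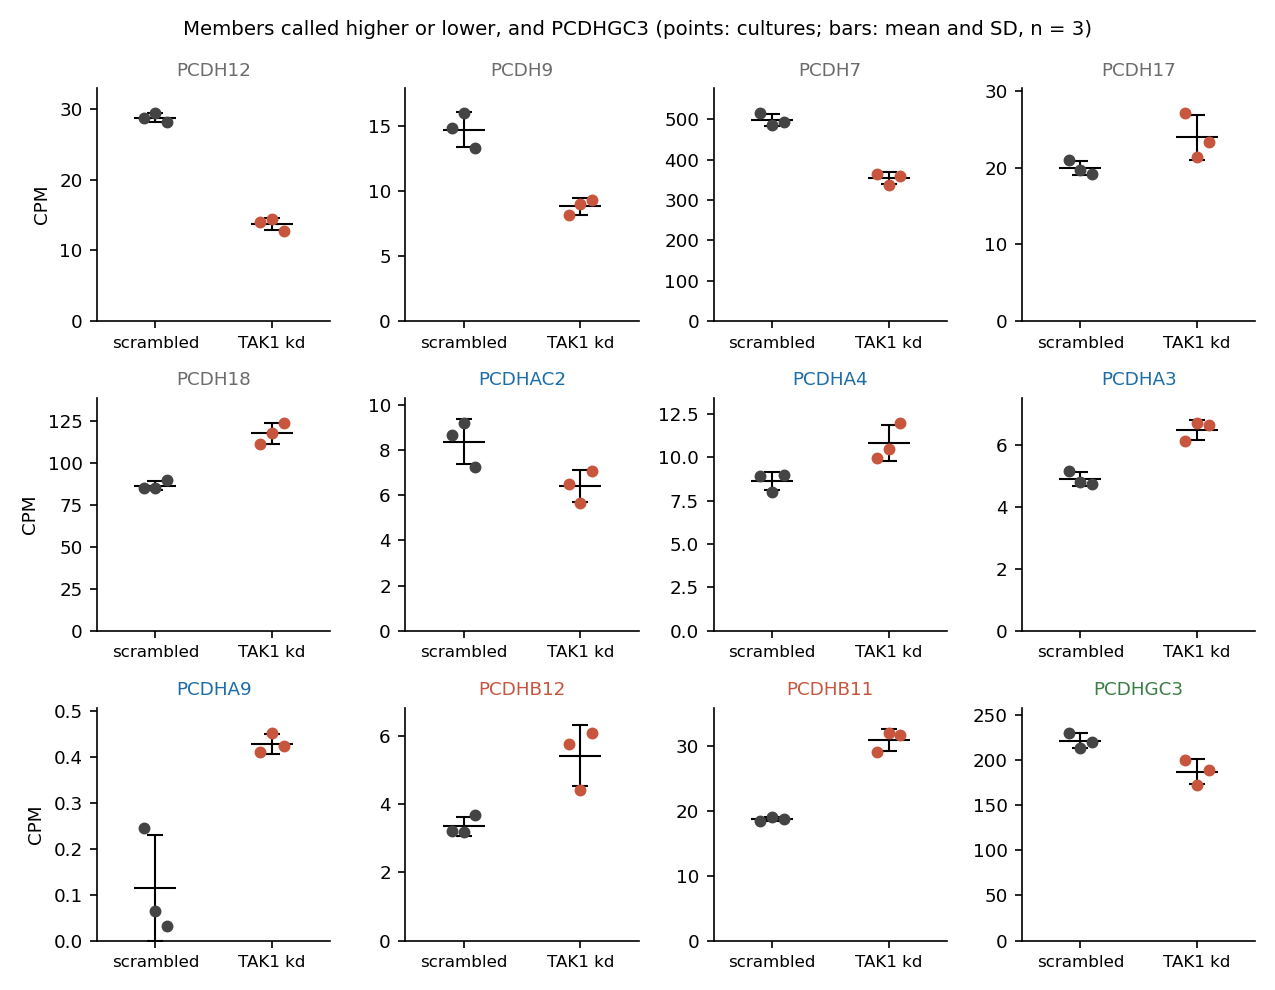
CPM of each culture (vertical axis, from 0) for the 11 protocadherins called higher or lower and for PCDHGC3, with grey points for the 3 control cultures (scrambled), red points for the 3 TAK1 knockdown cultures (TAK1 kd) and bars for the mean and SD. PCDH12 drops from 28.7 to 13.7 CPM and PCDHB11 climbs from 18.7 to 30.9 CPM with tight groups, while PCDHA9 stays under 0.5 CPM in every culture.

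Of the 39 tested clustered genes, PCDHA3, PCDHA4, PCDHB11 and PCDHB12 rose and PCDHAC2 fell in the TAK1 knockdown cultures. PCDHA9 also passed both thresholds, but it entered the test only through the knockdown cultures, in which it was higher, so its test was not independent of its level there. With PCDHA9, 12.8% of the tested clustered genes were called higher and 2.56% lower, and without it 4 of 38 (10.5%) higher and 1 (2.63%) lower, beside 11.8% and 11.3% of all tested genes. The share called higher lay near the background either way. In CPM, 8 of the 39 lay wholly above in the knockdown and 5 wholly below, beside 21.6% and 22.2% of all tested genes. PCDHA9 is 1 of the 8, and without it 7 of 38 lay wholly above and 5 wholly below. The median log2 fold change over the 39 was 0.13, or 0.127 over the 38 without PCDHA9, against 0.02 over all tested genes. It was 0.18 in the alpha cluster with PCDHA9 included, 0.18 in the beta cluster and -0.19 in the gamma cluster. The clustered genes were low and measured with larger error. Their median SE was 0.25, against 0.09 over all genes, and 13 of them averaged under 1 CPM, a level at which 6.31% of all tested genes were called. Of the 11 clustered genes with at least 5 CPM, 4 were called.

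The alpha cluster spans the plus strand of chromosome 5 from PCDHA1 at 140786136 to the shared end at 141012347. Of its 15 tested genes, 3 were called higher and 1 lower with PCDHA9 included, beside 11.8% and 11.3% of all tested genes. Leaving PCDHA9 aside, PCDHA3 and PCDHA4 rose and PCDHAC2 fell. A fitted log2 fold change above 0 was found for 9 of the 15, PCDHA9 included, and for 8370 of all 15935 tested genes. PCDHA3, which starts at 140801028, had 5.17, 4.79 and 4.74 CPM in control replicates 1, 2 and 3 and 6.12, 6.71 and 6.63 CPM in knockdown replicates 1, 2 and 3. The groups did not overlap, and the log2 fold change was 0.41 (SE 0.13, adjusted p = 0.0186, edgeR). The call of PCDHA3 was lost without control replicate 2 (0.39, adjusted p = 0.0673), control replicate 3 (0.38, adjusted p = 0.0692) or knockdown replicate 2 (0.38, adjusted p = 0.0518). PCDHA4, which starts at 140807037, had 8.93, 8.03 and 8.98 CPM in control cultures and 9.99, 10.5 and 12.0 CPM in knockdown cultures. Its groups did not overlap either, and the log2 fold change was 0.33 (SE 0.11, adjusted p = 0.0236, edgeR). The call of PCDHA4 was lost without control replicate 2 (0.27, adjusted p = 0.122) or knockdown replicate 3 (0.24, adjusted p = 0.132).

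PCDHA9, which starts at 140847772, was the alpha gene with the largest fitted change and among the least expressed. It had 7, 2 and 1 counts in control replicates 1, 2 and 3 and 12, 16 and 14 counts in knockdown replicates 1, 2 and 3, so it passed the expression filter through the knockdown cultures alone. The totals of 10 and 42 counts gave a ratio of 3.91, with a 95% exact interval of 1.93 to 8.73. That interval covers counting error only and is also conditioned on the high knockdown counts, so it supports no rise. The fit gave a log2 fold change of 1.92 (SE 0.63, adjusted p = 0.0203, edgeR), a p that is conditioned on the high knockdown counts and supports no rise. The fitted value was 3.06 without control replicate 1, and the thresholds were missed without control replicate 2 (1.63, adjusted p = 0.108), control replicate 3 (1.48, adjusted p = 0.128) or knockdown replicate 3 (1.92, adjusted p = 0.0517), and DESeq2 gave it no adjusted p.

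PCDHAC2, a C-type gene at the end of the alpha array that starts at 140966470, was the only clustered gene called lower. It had 8.65, 9.21 and 7.27 CPM in control replicates 1, 2 and 3 and 6.50, 5.66 and 7.09 CPM in knockdown replicates 1, 2 and 3. Control replicate 3 and knockdown replicate 3 were neighbours in level, with a small gap between the groups. The log2 fold change was -0.39 (SE 0.13, adjusted p = 0.0229, edgeR), and the call was lost without control replicate 1 (-0.36, adjusted p = 0.0683), control replicate 2 (-0.31, adjusted p = 0.133) or knockdown replicate 2 (-0.30, adjusted p = 0.0959).

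The leading alpha genes by level were not called, apart from PCDHAC2. PCDHA6 had 24.6, 21.4 and 25.6 CPM in control cultures and 27.4, 21.6 and 24.8 CPM in knockdown cultures, which interleaved (log2 fold change 0.04, SE 0.09, adjusted p = 0.764, edgeR). PCDHA11 had 8.09, 7.02 and 6.75 CPM in control cultures and 8.34, 7.81 and 8.54 CPM in knockdown cultures, with overlapping ranges and a log2 fold change of 0.18 (SE 0.12, adjusted p = 0.274, edgeR). PCDHA6 made up 32.6% ± 1.83 (SD, n = 3) of the alpha counts in control and 32.7% ± 2.86 in knockdown cultures. Over the cluster the summed level was 73.2 ± 3.27 CPM in control and 75.2 ± 2.98 CPM in knockdown cultures, which overlapped.

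The beta cluster held the clearest rises among the clustered genes. PCDHB11, a single-exon gene at 141199610 to 141203779, had 18.4, 19.1 and 18.7 CPM in control replicates 1, 2 and 3 and 29.0, 32.0 and 31.7 CPM in knockdown replicates 1, 2 and 3. The lowest knockdown culture was far above the highest control culture, and the log2 fold change was 0.72 (SE 0.07, adjusted p = 3.75e-08, edgeR), an increase of 64.9% in mean CPM. Its neighbour PCDHB12, at 141208697 to 141212571, had 3.20, 3.18 and 3.67 CPM in control cultures and 5.75, 4.42 and 6.09 CPM in knockdown cultures. Here too no culture of one group reached the other, and the log2 fold change was 0.69 (SE 0.16, adjusted p = 0.00166, edgeR). The next gene along the chromosome, PCDHB13, chosen after its values were seen, had a fitted log2 fold change of 0.70 (SE 0.30) that did not pass the test (adjusted p = 0.0743, edgeR). PCDHB9, chosen in the same way, had groups that did not overlap, with means of 3.87 and 5.04 CPM, and a log2 fold change of 0.38 (SE 0.15) that did not pass the test (adjusted p = 0.0545, edgeR).

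PCDHB2, the leading beta gene, had 55.2, 49.6 and 51.2 CPM in control cultures and 58.3, 55.0 and 56.7 CPM in knockdown cultures. The ranges overlapped narrowly, and the log2 fold change was 0.12 (SE 0.06, adjusted p = 0.118, edgeR). PCDHB6 had 11.9, 14.4 and 13.5 CPM in control cultures and 13.9, 15.7 and 15.5 CPM in knockdown cultures, with a log2 fold change of 0.18 (SE 0.10, adjusted p = 0.151, edgeR). PCDHB4 had the largest fitted change of the cluster, 0.77 (SE 0.51, adjusted p = 0.262, edgeR), from 0.246, 0.254 and 0.389 CPM in control cultures and 0.855, 0.368 and 0.333 CPM in knockdown cultures. The groups overlapped, and without knockdown replicate 1 the value was 0.24.

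In all, 10 of the 11 tested beta genes had a fitted log2 fold change above 0, as had 8370 of all 15935 tested genes. Only 2 beta genes (18.2%) were called higher and 0 lower by edgeR, beside 11.8% and 11.3% of all tested genes. DESeq2 called the same numbers of beta genes, beside 1685 of all 15935 tested genes higher and 1804 lower. At an unadjusted p under 0.05 in edgeR 5 were higher and 0 lower, and with adjustment over all genes the number was 2. The share of all tested genes at the unadjusted cut is not given here, so nothing is read from that count. The summed beta level was 109.5 ± 0.689 CPM in control and 133.2 ± 2.03 CPM in knockdown cultures (SD, n = 3), with no overlap. Without PCDHB11 the sums were 90.7 ± 0.966 and 102.4 ± 2.82 CPM, still with no overlap. PCDHB11 made up 17.1% ± 0.389 of the beta counts in control and 23.2% ± 1.36 in knockdown cultures, and PCDHB2 went from 47.5% ± 2.36 to 42.5% ± 1.01 (SD, n = 3).

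**Figure D4:**
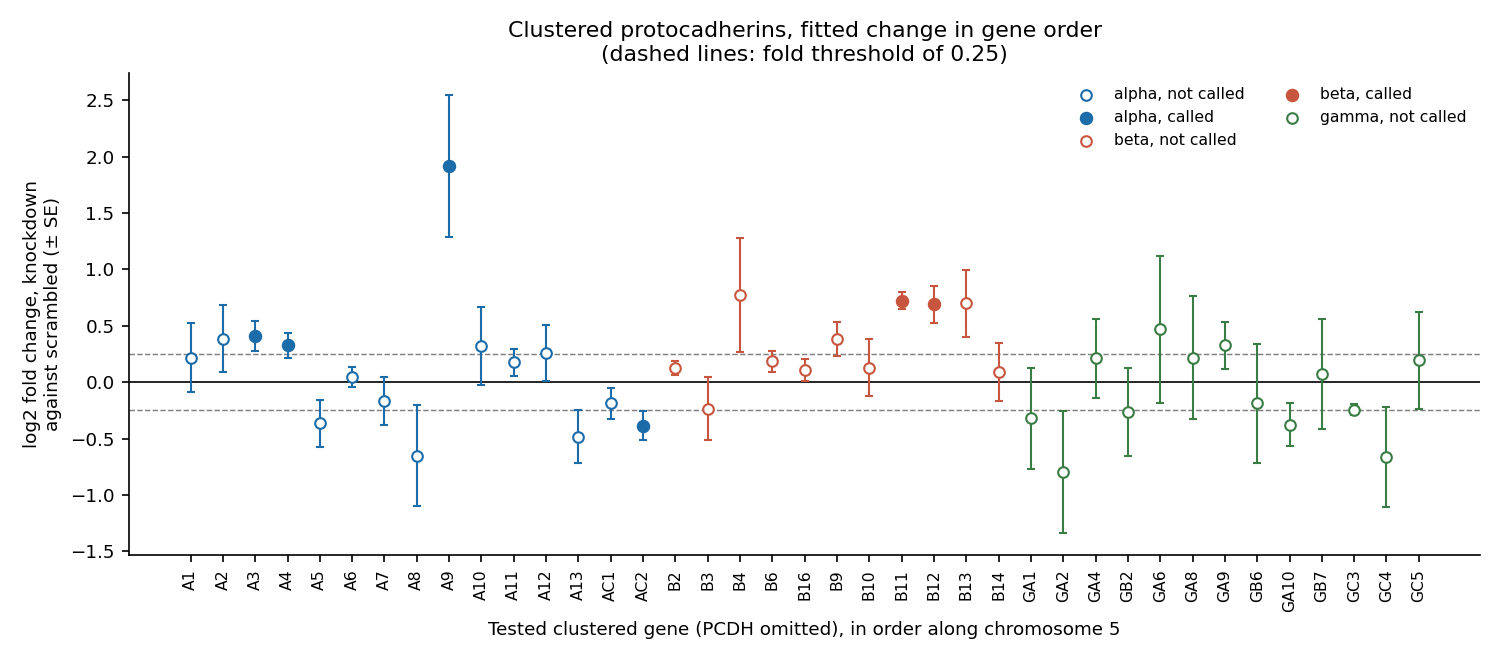
Fitted log2 fold change of the TAK1 knockdown against control cultures with its SE (vertical axis) for the 39 tested clustered genes in their order along chromosome 5 (horizontal axis, names without PCDH), with called genes filled and dashed lines at the fold threshold of 0.25. PCDHB11, PCDHB12 and PCDHB13 stand side by side near 0.7 with PCDHB13 not called, PCDHA9 has a wide error, and the gamma genes scatter around 0 with none called.

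In the gamma cluster 0 of the 13 tested genes were called by edgeR's quasi-likelihood test. Of all tested genes, 11.8% were called higher and 11.3% lower. A fitted log2 fold change above 0 was found for 6 of the 13 and for 8370 of all 15935 tested genes. DESeq2 called 0 of the 13 as well, beside 1685 of all 15935 tested genes higher and 1804 lower. At an unadjusted p under 0.05 in edgeR the number was 1, PCDHGC3, which also had an adjusted p under 0.05. The share of all tested genes at the unadjusted cut is not given here. PCDHGC3, which starts at 141475947 and is a C-type gene that many cells express, had 230, 213 and 220 CPM in control replicates 1, 2 and 3 and 200, 172 and 189 CPM in knockdown replicates 1, 2 and 3. The groups did not overlap. The log2 fold change was -0.24 (SE 0.05, adjusted p = 0.000698, edgeR), just inside the fold threshold, and PCDHGC3 would be called lower without control replicate 2 (-0.27), knockdown replicate 1 (-0.29) or knockdown replicate 3 (-0.26).

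PCDHGC3 held between 93.5% and 94.8% of the gamma counts in every culture, so the sum of the cluster is largely this gene. The summed gamma level was 233.6 ± 9.10 CPM in control and 199.1 ± 13.6 CPM in knockdown cultures, with no overlap, but 12.3 ± 0.609 and 12.1 ± 0.858 CPM without PCDHGC3, with overlap. The next genes in level did not pass the test. PCDHGA9 had 1.79, 2.95 and 2.34 CPM in control cultures and 3.35, 2.72 and 2.88 CPM in knockdown cultures (log2 fold change 0.33, SE 0.21, adjusted p = 0.245, edgeR). PCDHGA10 had 4.22, 3.05 and 3.41 CPM in control cultures and 2.26, 2.80 and 3.12 CPM in knockdown cultures (log2 fold change -0.38, SE 0.19, adjusted p = 0.136, edgeR). Both pairs of ranges overlapped. PCDHGA2 had the largest fitted change of the cluster, -0.80 (SE 0.54, adjusted p = 0.285, edgeR), from 0.703, 0.635 and 0.227 CPM in control cultures and 0.410, 0.396 and 0.0909 CPM in knockdown cultures, which also overlapped. Without knockdown replicate 3 that value was -0.37, and without control replicate 3 it was -1.16. PCDHGC4, known for its part in the survival of neurons, had means of 0.613 and 0.382 CPM (log2 fold change -0.66, SE 0.44).

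Compared as sets, the non-clustered genes were called in 5 of 8 and the clustered genes in 6 of 39, or 5 of 38 without PCDHA9, and no test of this difference was made. The sets also differed in level, which moves with the share called: the median of the means was 21.6 CPM for the non-clustered and 1.61 CPM for the clustered genes. Among genes of at least 5 CPM, 5 of 6 non-clustered and 4 of 11 clustered genes were called, beside 28.0% of all genes at that level. By direction, 3 were lower and 2 higher among the non-clustered genes, and 1 was lower and 4 higher among the clustered genes without PCDHA9, with PCDHGC3 just inside the fold threshold on the lower side. A difference in direction between the sets was not tested. The summed clustered level was 416.2 ± 12.7 CPM in control and 407.5 ± 17.9 CPM in knockdown cultures (SD, n = 3), which overlapped. The summed non-clustered level was 725.5 ± 12.4 CPM in control and 602.8 ± 13.9 CPM in knockdown cultures, with no overlap.

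Both sums rest on 1 gene. Without PCDHGC3 the clustered sum was 195.0 ± 4.20 CPM in control and 220.5 ± 5.26 CPM in knockdown cultures, and without PCDH7 the non-clustered sum was 227.5 ± 3.12 CPM in control and 249.0 ± 9.05 CPM in knockdown cultures. In both cases the knockdown cultures were then the higher ones, with no overlap. PCDH7 went from 68.6% ± 0.929 of the non-clustered counts in control to 58.7% ± 1.55 in knockdown cultures, while PCDH18 went from 11.9% ± 0.476 to 19.5% ± 0.989 and PCDH12 from 3.96% ± 0.129 to 2.28% ± 0.193 (SD, n = 3).

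**Figure D5:**
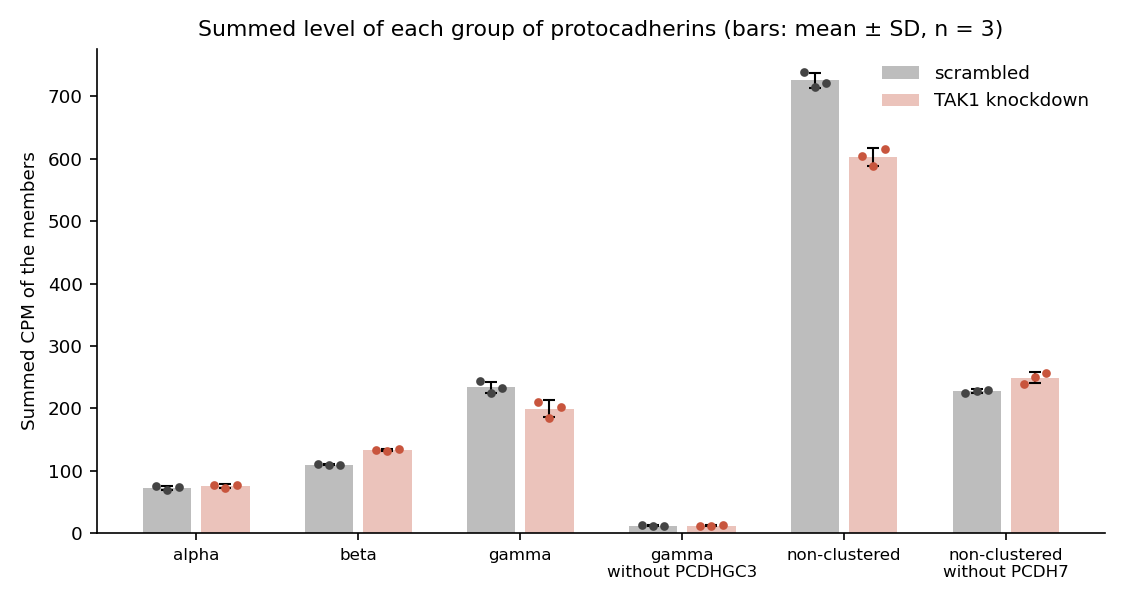
Summed CPM of the members of each group (vertical axis, from 0) in control (scrambled, grey) and TAK1 knockdown (red) cultures, with 1 point a culture and bars and whiskers for the mean and SD of 3. The non-clustered sum drops from 725.5 to 602.8 CPM with PCDH7 and goes from 227.5 to 249.0 CPM without it, while the beta sum goes from 109.5 to 133.2 CPM.

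The genes known to act at clustered protocadherin promoters were measured in the same fit. Of 16 such genes, among them CTCF, the cohesin subunits and their loaders, and DNA methyltransferases, all were tested, 3 (18.8%) were called lower by edgeR, beside 11.3% of all tested genes, and the other genes were not called. Several of these missed only the fold threshold, with an adjusted p under 0.05 in edgeR. CTCF, RAD21, SMC3, STAG1, STAG2 and PDS5A had lower fits, from -0.149 for CTCF to -0.217 for STAG1. SETDB1 (0.223) and DNMT3A (0.127) had higher fits. The median log2 fold change was -0.16. DNMT3B, a methyltransferase that sets new marks, fell from 36.9 ± 0.846 to 25.3 ± 1.75 CPM (log2 fold change -0.55, SE 0.07, adjusted p = 1.29e-06, edgeR). WAPL, which releases cohesin from DNA, fell by 0.29 (SE 0.05) and DNMT1, which copies methylation after replication, by 0.28 (SE 0.04) on the log2 scale. How these values relate to the protocadherin promoters was not tested.

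Genes around the clusters on chromosome 5 were read in the same way. Of 21 tested genes within 500 kb of the clusters that are no protocadherins, 1 (4.76%) was called higher and 2 (9.52%) lower, beside 11.8% and 11.3% of all tested genes, and the median log2 fold change was 0.00. The called genes were APBB3, an adaptor that binds the amyloid precursor protein, at 0.43 (SE 0.15, adjusted p = 0.0251, edgeR), PFDN1, a prefoldin subunit, at -0.48 (SE 0.07, adjusted p = 3.86e-06, edgeR) and ARAP3, a GTPase-activating protein, at -0.42 (SE 0.09, adjusted p = 0.000555, edgeR). TAF7, a subunit of the general transcription factor TFIID that lies between clustered genes, had a log2 fold change of -0.05 (SE 0.05, adjusted p = 0.449, edgeR).

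Of 22 signalling partners and proteases of protocadherins, such as kinases and WAVE complex genes, all were tested. Among them 3 (13.6%) were called higher and 3 (13.6%) lower, close to the 11.8% and 11.3% of all tested genes. The median log2 fold change was 0.00. Within the WAVE complex the calls went both ways: CYFIP2 rose by 0.71 (SE 0.20, adjusted p = 0.00878, edgeR) at 2.02 ± 0.441 and 3.31 ± 0.278 CPM, whereas NCKAP1 fell by 0.32 (SE 0.04, adjusted p = 2.93e-06, edgeR) at 301.3 ± 1.62 and 240.7 ± 9.17 CPM. PSEN2, a catalytic subunit of the gamma-secretase that cuts protocadherin tails, fell by 0.51 (SE 0.08, adjusted p = 2.28e-05, edgeR), and TAOK2, a kinase, rose by 0.35 (SE 0.05, adjusted p = 7.32e-06, edgeR). The other members of the cadherin superfamily on the list, such as FAT, Dachsous, Celsr and calsyntenin genes, numbered 18, of which 12 were tested, 4 (33.3%) were called higher and 1 (8.33%) lower, beside 11.8% and 11.3% of all tested genes, with a median log2 fold change of 0.22. The largest of these were DCHS1, a ligand in planar polarity, at -0.53 (SE 0.05, adjusted p = 5.79e-09, edgeR), and CLSTN2, a synaptic calsyntenin, at 0.53 (SE 0.15, adjusted p = 0.00676, edgeR). CELSR3 and CELSR2, which act in planar cell polarity, rose by 0.45 (SE 0.11) and 0.36 (SE 0.07) on the log2 scale.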

How the data were processed

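Poly(A)-enriched RNA of 6 RD cultures, 3 with scrambled and 3 with TAK1 shRNA as labelled, was sequenced by the authors. Per the labels and the methods of the study, bases were called with CASAVA, reads with adaptors or of low quality were dropped, STAR aligned the others to GRCh38 (hg38), and the authors deposited raw counts of reads per gene, without normalization. The counter, annotation release, strand use and rule for reads with several matches are not given in the sources used here. Nothing says that replicates came from separate experiments, so p-values measure the spread between these cultures, which may be technical.

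Differences were fitted over all genes with edgeR 4.0.16 in R 4.3.3: default expression filter (15935 of 58735 genes), trimmed mean of M-values, quasi-likelihood test, Benjamini-Hochberg adjustment, and a call at an adjusted p under 0.05 and a log2 fold change of at least 0.25 in size. SE is the size of the fitted change over the root of its F statistic. Total counts of 28839898 to 34469323 and a common biological coefficient of variation of 5.67% set the precision. Replicates differed by more than sampling noise (chi-square per degree of freedom 2.80 to 7.94). On simulated data edgeR recovered 94 of 98 genes changed by 1 and 68 of 99 changed by 0.5 on the log2 scale, with 8 false calls among 15913 genes, and DESeq2 1.42.0 recovered 87 and 60.

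Exon lengths, overlaps and coordinates came from GENCODE 44, and the per-length scale needed at least 1000 bases of gene-specific exon. Promoter windows came from RefSeq (GRCh38.p14). Alternatives were DESeq2, 3 normalizations, 2 filters, 2 fold thresholds, replicate as a block, and each culture left out in turn. The members, lists and tests were chosen with earlier results of these data known. Genes named with values in every sample are those called, the 3 of highest level per length and the 1 of largest absolute log2 fold change in each of alpha, beta, gamma and non-clustered. Listed genes that are no members are named where called, at most 4 a list. Promoter regulators that missed the fold threshold alone are also named, chosen after their values were seen.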

Additional observations from a re-analysis of the deposited data

How the results depend on the processing

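PCDH9, PCDH12, PCDHB11 and PCDHB12 kept their call under every alternative that gave a value. PCDH7 and PCDH18 did so except at a fold threshold of 0.5, which their log2 fold changes of -0.49 and 0.45 do not reach, and MAP3K7 stayed between -1.36 and -1.25 on the log2 scale. Clustered genes called higher numbered 5, with 3 at a fold threshold of 0.5, both counts including PCDHA9. Their number ran from 2 (without control replicate 2, where 1589 of all genes were called higher) to 5 when single cultures were left out. It was 6 with upper-quartile normalization, where 2027 of all genes were called higher, and 6 with library size alone. Over all genes, 1582 to 1810 were called higher and 1675 to 1931 lower when single cultures were left out. The numbers over all genes at a fold threshold of 0.5 or with none are not given here. Clustered genes called lower numbered 1, with 0 at a threshold of 0.5, 2 with no fold threshold and from 0 to 2 when cultures were left out. Non-clustered genes called higher numbered 2, with 0 at a threshold of 0.5 and from 1 to 2 when cultures were left out. The median log2 fold change of the clustered genes was 0.13 and ran from 0.10 to 0.18 with cultures left out. That of the non-clustered genes was -0.18 and ran from -0.205 to -0.074 with cultures left out. Without a filter on low counts the non-clustered median was 0.027, with PCDH10 and PCDH11X added to the genes. PCDHA6, not called, changed sign without control replicate 2 (-0.033) and without knockdown replicate 1 (-0.039). Apart from the settings whose construction shows it, the cause was not tested. With library size alone as scaling, 2376 of all genes were called higher and 1404 lower, against 1879 and 1805. DESeq2 called 4 clustered genes higher, beside 1685 of all 15935 tested genes, and gave PCDHA9 no adjusted p. Leaving PCDHA9 out, chosen after seeing the data, also gave 4 higher and 1 lower.

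Replicate numbers are shared by the groups, and whether they pair the cultures cannot be told from these values. Deviations of same-numbered cultures correlated at 0.04, 0.04 and 0.02, and those of other pairs at -0.0524 to 0.019. Control replicates 1 and 2 correlated best with the knockdown culture of their number, and control replicate 3 with knockdown replicate 2. With a replicate block, 6 clustered genes were called higher and 1 lower, 2 non-clustered genes higher and 3 lower, and 1942 of all genes higher and 1848 lower. The medians were then 0.13 and -0.18. Depth limits the genes under 1 CPM, 14 of the 47 tested members.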

Other observations

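Protocadherin pseudogenes and antisense genes, which are no members, were almost silent in RD cells. Over all 6 cultures together PCDHB18P held 38 counts, PCDHB17P 31, PCDHB19P 8, PCDHGB8P 5 and PCDHGB9P 5. The antisense genes PCDH9-AS2 and PCDH9-AS3 held 4 and 1 counts, while PCDH8P1, PCDH9-AS1 and PCDH9-AS4 were at 0.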
